A study of Saccharomyces cerevisiae with 51 samples.

Results

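Budding yeast (Saccharomyces cerevisiae) grown in continuous culture can pass together through repeated metabolic cycles, and the transcripts of wild-type cells late in the reductive, building phase (RB late) were compared with those at its start (RB start). The comparison rests on 4 of the 51 samples of the series: RNA libraries A and B of strain CEN.PK at RB start, and libraries A and B of the same strain at RB late. Of 6840 genes in the table, the 6510 whose mean over the cycle libraries reached 1 FPKM were tested. FPKM are counts of sequenced fragments divided by gene length and by a scaling factor of the library. The other wild-type libraries (RC start, RC mid, OX mid and OX late, 2 each) show where a gene stood before and after. The libraries of an ARP5 deletion in the same background (CEN.PK ARP5::KAN, here arp5∆) at phases of the same labels serve to compare the change between genotypes. No drug or other treatment entered these groups. A and B are technical replicates, separate RNA preparations of 1 culture, and each genotype rests on 1 culture, so every p-value measures the technical spread between preparations and not that between cultures.

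In the metabolic cycle, oxygen uptake rises and falls in step with transcription. Genes for making ribosomes peak in the oxidative phase (OX), genes for cell division and mitochondria in the building phase (RB), and genes for stress resistance, storage carbohydrate and the burning of fat and acetate in the charging phase (RC), when the cells resemble a resting culture. Arp5 is a subunit of INO80, an ATP-driven complex that slides nucleosomes. In a bulk sample, fewer cells of a kind and less RNA per cell cannot be told apart.

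ARP5 had 54.9 and 51.6 FPKM in libraries A and B of wild-type RB start and 49.3 and 48.2 in those of RB late, and 11 of the 12 arp5∆ libraries list it at 0 (0.0649 FPKM in the other). The genotype labels thus match the values. Marker lists of OX and RB follow the labels of the wild type too. The median level of the 134 ribosome biogenesis genes was highest at OX mid (228.6 FPKM, against 31.6 at RB start and 13.8 at RB late). At RB late 67 of 74 mitochondrial ribosomal protein genes were highest, and at RB start 6 of 8 core histone genes. Other markers did not match as closely. The RC marker list, peroxisomes and fatty acid oxidation, had its highest median level at RB late (106.5 FPKM, against 86.8 at RC start). Among division genes, 39 of 56 for DNA replication and cohesion were highest at OX late. In the G2/M cluster 20 of 27 were highest at RC start. The values show 6.39 and 6.26 M reads on coding genes at RB start and 5.02 and 5.95 M at RB late. Libraries A and B correlated across genes with r = 0.989 at RB start and 0.990 at RB late. Of the genes at 10 FPKM or more, 22 of 5644 at RB start and 17 of 5554 at RB late lay at least 2-fold apart between A and B. The FPKM were not scaled to a fixed sum: they added up to 1.11 and 1.07 M at RB start and to 1.30 and 1.29 M at RB late, and the 10 most abundant genes held 8.26% and 8.31%, then 11.3% and 11.2%, of the sum. Shifting all libraries to the same median gave 1135 calls and quantile normalization 1100, against the 1140 described next.

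Between RB start and RB late in wild type, transcripts of genes for using ethanol, acetate and fatty acids rose, as did those of stress and storage genes, and transcripts for the cytosolic ribosome and its assembly fell. The largest rises were far larger than the largest falls. A gene was called when its Benjamini-Hochberg adjusted p (limma on log2 of FPKM + 1) was under 0.05 and its log2 change was at least 1 either way, which is 2-fold. By this rule 586 genes (9.00% of those tested) were higher at RB late and 554 (8.51%) were lower, 1140 (17.5%) in all. At least 4-fold changes were seen in 189 rising and 38 falling genes, and at least 8-fold changes in 74 rising genes and no falling gene. The 2 libraries of each phase did not overlap in any of the 586 rising genes and in 553 of the 554 falling ones. This follows largely from the call itself, and the share over all tested genes is not given here. The median change over all tested genes was -0.01.

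**Figure D1:**
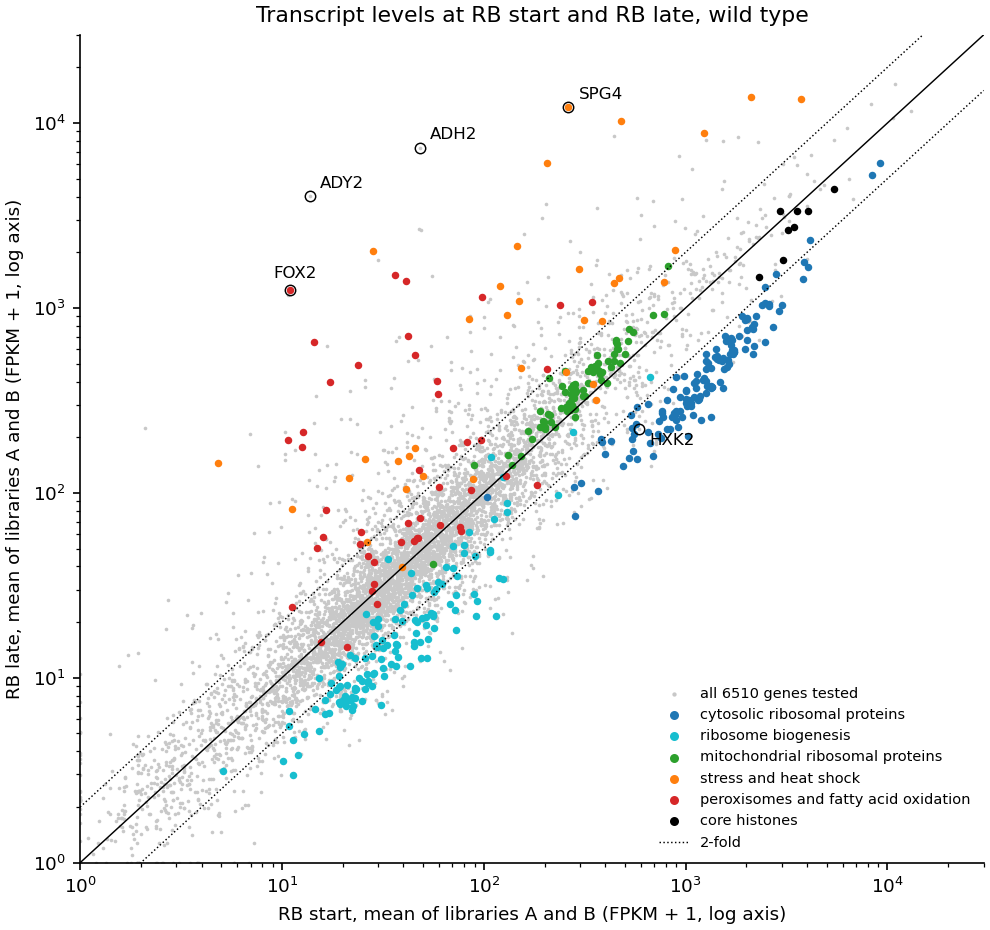
Mean FPKM + 1 of libraries A and B at RB start (horizontal, log axis) and RB late (vertical, log axis) in wild type, 1 point per tested gene, with 6 gene lists in colour and dotted lines at 2-fold. Cytosolic ribosomal protein genes (blue) lie below the diagonal, most stress and peroxisomal genes (orange and red) above it, most mitochondrial ribosomal protein genes (green) slightly above it, and histone genes (black) close to it.

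Of the 12 largest rises, 7 were of members of the list for acetate, the glyoxylate cycle and gluconeogenesis (ADY2, ADH2, ACS1 and CIT3) or of the list for peroxisomes and fatty acid oxidation (FOX2, POT1 and POX1). ADY2 (YCR010C, chromosome III, 132273 to 133124 in assembly R64), which encodes an acetate transporter, had 12.5 and 12.9 FPKM in libraries A and B of RB start and 3990 and 4044 in those of RB late, a log2 change of 8.19 ± 0.08 (SE; limma adjusted p = 6.4e-21). ADH2 (YMR303C, chromosome XIII, 873291 to 874337), the glucose-repressed alcohol dehydrogenase that oxidizes ethanol, went from 48.7 and 45.8 FPKM to 7537 and 7180 (7.25 ± 0.04, adjusted p = 8.17e-24). Both genes were thus low in both libraries of RB start and among the abundant transcripts in both libraries of RB late. ADH2 resembles ADH1 in sequence and may share reads with it, which was not tested. ADH1 had 3454 and 2972 FPKM at RB start and 2679 and 2748 at RB late (ADH1 was looked up after its values were seen).

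FOX2 (YKR009C, chromosome XI, 454352 to 457054), the multifunctional enzyme of peroxisomal beta-oxidation, had 10.1 and 9.80 FPKM at RB start and 1260 and 1228 at RB late (6.83 ± 0.04, adjusted p = 2.03e-23). FDH1, a formate dehydrogenase gene with a close copy in the genome, went from 11.3 and 8.17 to 1211 and 1140 FPKM (6.79 ± 0.14). SPG1, a gene known from stationary-phase survival, went from 24.6 and 29.7 to 2008 and 2077 FPKM (6.19 ± 0.10). In all 3 the libraries of the phases stood far apart, and the absence of overlap was a condition of their choice. CTA1, the peroxisomal catalase gene, rose from 31.9 and 26.1 to 1869 and 1748 FPKM (5.92 ± 0.08). ACS1, which makes acetyl-CoA from acetate, rose from 50.8 and 42.7 to 2727 and 2622 FPKM (5.81 ± 0.06). CIT3, a mitochondrial citrate and methylcitrate synthase gene, rose from 49.0 and 46.6 to 2648 and 2607 FPKM (5.75 ± 0.07). SPG4, another stationary-phase gene, had the highest level among the 12 at RB late, with 12555 and 11771 FPKM after 284.9 and 237.4 at RB start (5.54 ± 0.07). The remaining 3 of the 12 act on fatty acids: POT1 (ketoacyl-CoA thiolase) rose by 5.51 ± 0.09, POX1 (acyl-CoA oxidase) by 5.37 ± 0.05 and FAT3 (fatty acid uptake) by 5.23 ± 0.08.

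**Figure D2:**
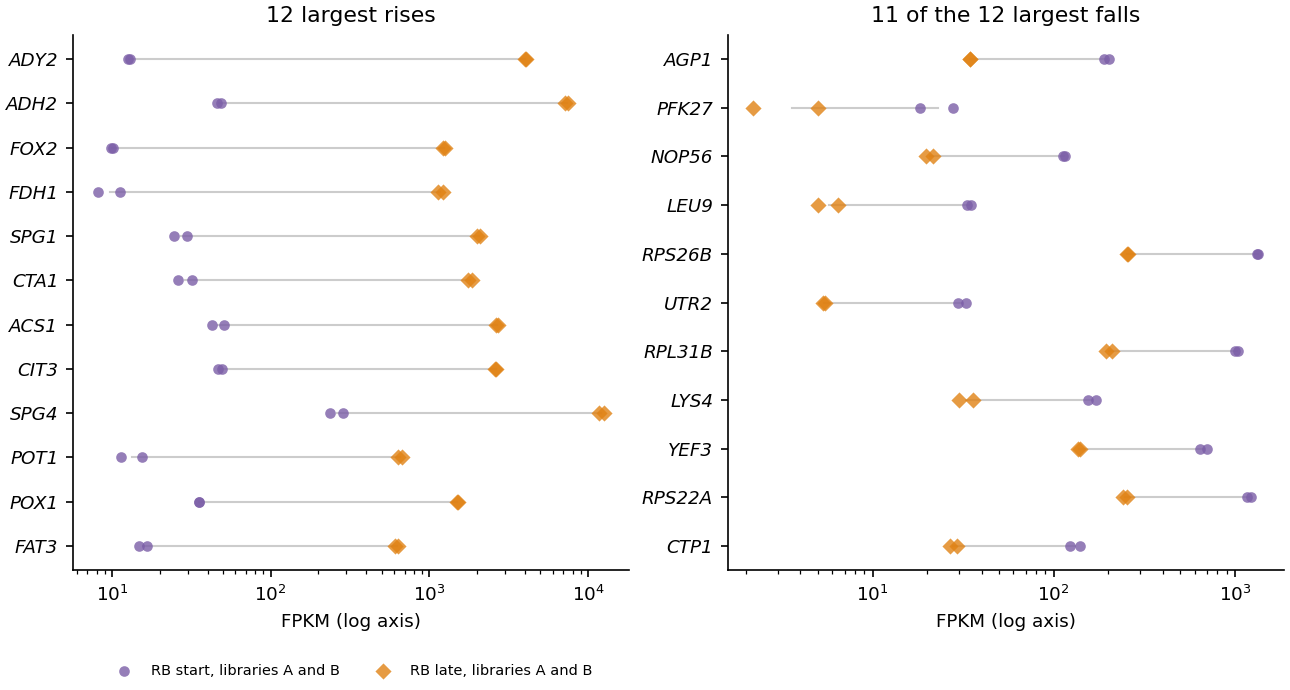
FPKM (log axis) in each library for the 12 largest rises (left) and 11 of the 12 largest falls (right), circles for RB start and diamonds for RB late, with a grey line joining the phase means. The libraries of the phases stand apart for all 23 genes because this was a condition of their choice. The gap is wider for the rises (ADY2 from 12.5 and 12.9 to 3990 and 4044) than for the falls (AGP1 from 201.2 and 190.4 to 34.7 and 34.6).

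The acetate, glyoxylate cycle and gluconeogenesis list had 12 of 21 members higher and none lower, with a median log2 change of 1.16 against -0.01 over all genes. The other 9 members were not called. The following values are of genes picked after their values were seen. ALD4, the mitochondrial aldehyde dehydrogenase gene, went from 454.3 and 422.9 FPKM to 8567 and 8521 (log2 change 4.28 ± 0.03), and JEN1, a lactate and pyruvate permease gene, from 945.1 and 907.4 to 6618 and 6671 (2.84 ± 0.03). ICL2, which encodes the mitochondrial 2-methylisocitrate lyase, went from 56.7 and 51.7 to 1522 and 1462 (4.76 ± 0.05). By contrast ICL1, the isocitrate lyase of the glyoxylate cycle, had 305.7 and 273.7 FPKM at RB start and 446.8 and 436.8 at RB late (0.61 ± 0.06, under the 2-fold minimum), and MLS1, the malate synthase of that cycle, rose by 1.16 ± 0.05. PCK1, the PEP carboxykinase of gluconeogenesis, had 46.6 and 45.0 FPKM at RB start and 41.4 and 43.3 at RB late (-0.11 ± 0.08, limma adjusted p = 0.22), and FBP1, the fructose-bisphosphatase, had a change of 0.58 ± 0.08. The list as a whole had already moved in the step before: its median change from OX late to RB start was 1.24 and that from RB late to RC start was -0.08. These neighbouring steps share the RB start or RB late libraries with the comparison, so they are given side by side and not tested against it.

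Of the 47 genes for peroxisomes and fatty acid oxidation, 27 were higher, none was lower, and the median change was 1.18. Beside the enzymes named above, CAT2, the carnitine acetyltransferase that moves acetyl units between compartments, had 39.6 and 40.4 FPKM at RB start and 1402 and 1387 at RB late (5.09 ± 0.04), and CRC1, the mitochondrial carnitine carrier gene, 58.6 and 58.3, then 337.7 and 345.1 (2.53 ± 0.06). Both were chosen after their values were seen. So were 4 regulators of these genes, of which 1 was called. PIP2, a subunit of the oleate-responsive activator, went from 14.1 and 16.0 to 55.9 and 58.0 FPKM (1.86 ± 0.10). Its partner OAF1 had 14.6 and 14.5 FPKM at RB start and 14.0 and 15.2 at RB late (-0.00 ± 0.09). ADR1, the activator of ADH2 and of peroxisomal genes, had 67.6 and 83.0, then 60.7 and 68.3 FPKM (-0.22 ± 0.09). CAT8, the activator of gluconeogenic genes, had 16.9 and 16.7, then 18.2 and 19.1 (0.14 ± 0.10, adjusted p = 0.224). Their transcripts say nothing of the activity of the proteins. Over the 6 phases 16 members of the list were highest at RB late and 20 at RC start.

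Stress and storage genes rose with them. In the stress and heat shock list 29 of 35 members were higher and none was lower (median 1.93), and among the genes of trehalose and glycogen, the storage carbohydrates of yeast, 16 of 19 were higher and none lower (1.89). CTT1, the cytosolic catalase gene, had 4.52 and 3.14 FPKM at RB start and 148.1 and 139.8 at RB late (4.92 ± 0.10). GPH1, the glycogen phosphorylase gene, rose from 83.0 and 86.6 to 728.7 and 745.0 FPKM (3.10 ± 0.05), PGM2, a phosphoglucomutase gene, from 69.4 and 66.2 to 507.5 and 504.7 (2.88 ± 0.05), and TSL1, a subunit of trehalose synthase, from 39.5 and 36.3 to 240.4 and 244.9 (2.65 ± 0.09). Both the gene that breaks glycogen down and genes that build storage sugars were therefore higher in both libraries of RB late. The lists differed in where their members stood at RC start. The median change from RB late to RC start was 1.01 for the stress list, in which 25 members were highest at RC start and 1 at RB late. For trehalose and glycogen it was 0.25, with 11 and 6 members, and for peroxisomes and fatty acid oxidation 0.01.

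Of 36 redox defence genes 12 were higher (33.3%, against 9.00% of all tested genes) and 2 lower (5.56%, against 8.51%), with a median change of 0.70. GPX1, a glutathione peroxidase gene, went from 123.2 and 114.6 to 699.6 and 694.7 FPKM (2.54 ± 0.07), and CCP1, the mitochondrial cytochrome c peroxidase gene, rose by 1.81 ± 0.08. OYE2, an NADPH dehydrogenase gene, fell from 205.1 and 186.9 to 69.3 and 71.9 FPKM (-1.46 ± 0.06), and GRX8, a glutaredoxin gene, fell by 1.07. Autophagy and vacuolar protease genes rose in 8 of 34 cases (23.5%, against 9.00% of all tested genes), with none lower (median 0.70). Among them were PAI3, the inhibitor of proteinase A (from 194.5 and 173.3 to 1153 and 1092 FPKM, 2.60 ± 0.07), PRC1, the vacuolar carboxypeptidase Y (1.75 ± 0.08), and ATG34, a receptor for selective autophagy (1.76 ± 0.06). The other 26 members of this list were not called.

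**Figure D3:**
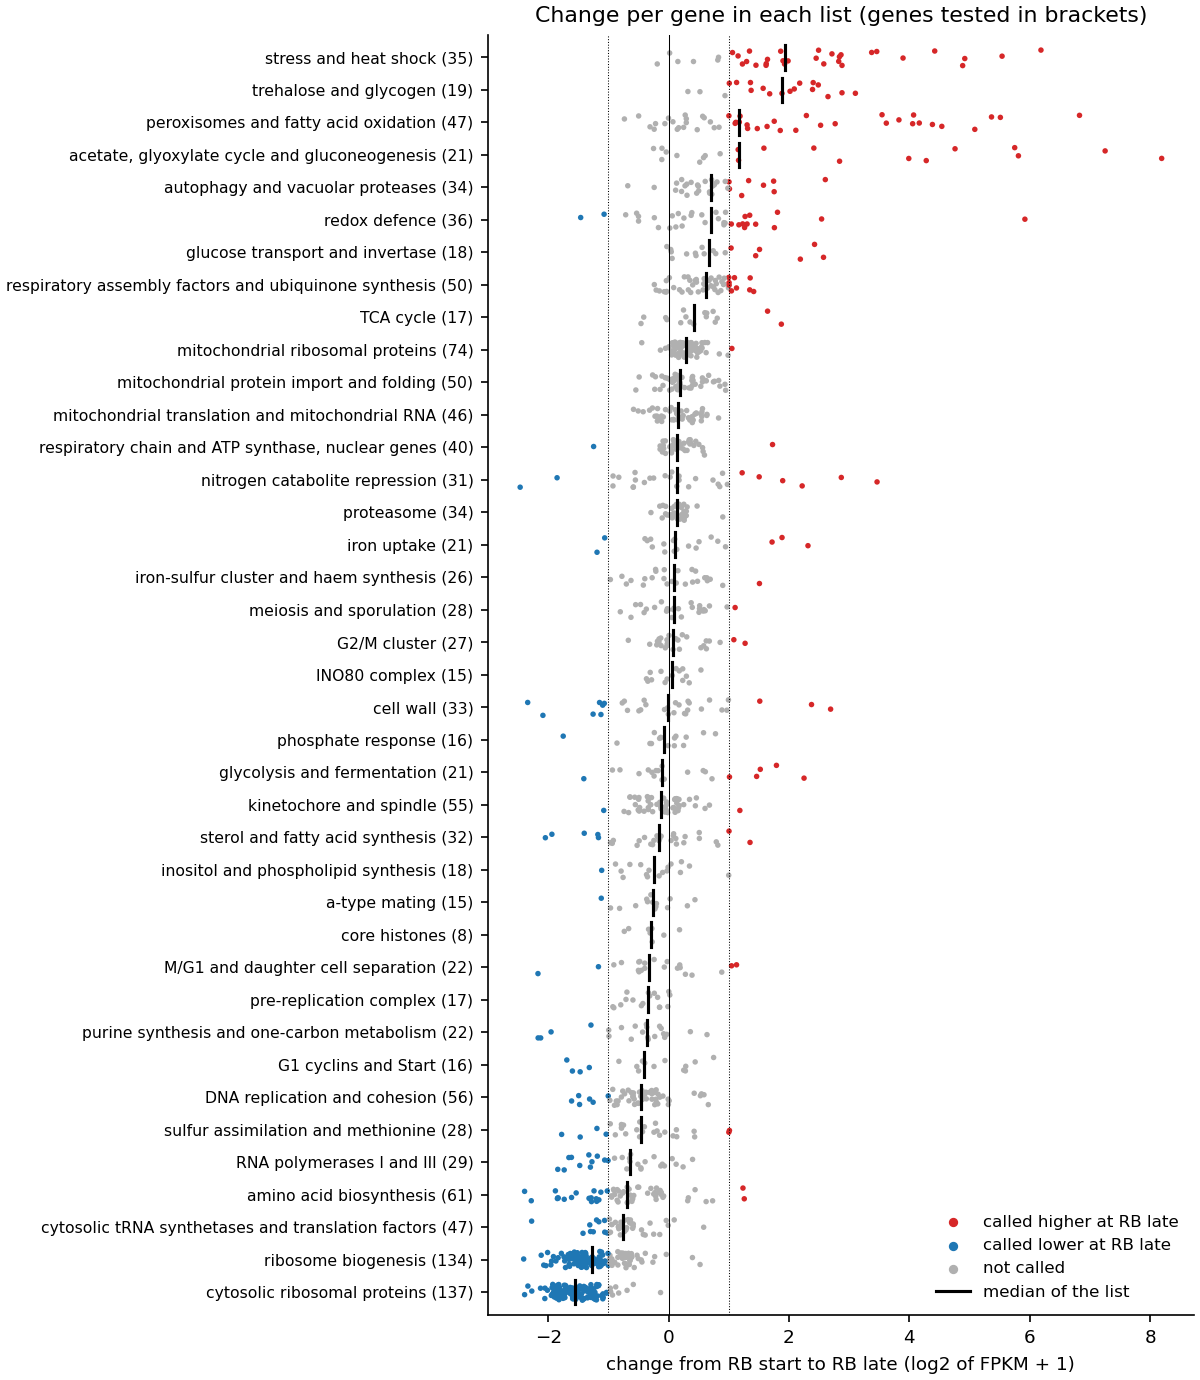
Log2 change from RB start to RB late for each tested member of the 39 gene lists, ordered by their median (black bar), with genes called higher in red, called lower in blue and not called in grey, and dotted lines at 2-fold. Stress and storage lists have medians near 1.9, and cytosolic ribosomal proteins are lowest at -1.55. Mitochondrial lists have medians from 0.09 (iron-sulfur clusters and haem) to 0.62 (respiratory assembly and ubiquinone). Cell division lists have medians from -0.45 (DNA replication and cohesion) to 0.08 (G2/M cluster).

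Growth genes fell, each by less than 8-fold. Of 137 cytosolic ribosomal protein genes 129 were lower and none was higher, with a median change of -1.55 and a range from -2.39 to -0.13. Their median level went from 1262 FPKM at RB start to 378.8 at RB late and stood at 346.0 at RC start. RPS26B had 1332 and 1351 FPKM in the libraries of RB start and 253.5 and 256.6 in those of RB late (-2.39 ± 0.05), RPL31B 1047 and 1002, then 211.2 and 193.3 (-2.34 ± 0.07), and RPS22A 1221 and 1172, then 240.1 and 254.1 (-2.27 ± 0.04). In each the 4 libraries fell into clearly separate pairs, which was a condition of the choice of the largest falls. Each of these 3 genes has a near-identical copy with which it can share reads, so the values of single copies are uncertain. The median change of the family was -0.82 in the step before, from OX late to RB start, and -0.15 in the step after, from RB late to RC start.

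Ribosome biogenesis genes, which act in rRNA processing and ribosome assembly, were lower in 88 of 134 cases and higher in none (median -1.27). NOP56, a core protein of the small nucleolar particles that guide rRNA methylation, went from 112.3 and 114.8 to 19.7 and 21.6 FPKM (-2.41 ± 0.07, limma adjusted p = 9.94e-15). DBP2, an RNA helicase gene, went from 29.6 and 30.1 to 6.30 and 5.94 FPKM (-2.12 ± 0.09), and BRX1, an assembly factor of the large subunit, from 91.6 and 88.6 to 21.3 and 20.1 (-2.07 ± 0.10). These levels are low beside those of OX mid, where NOP56 had 681.1 and DBP2 1157 FPKM on average. The median change of the list was -0.44 from OX late to RB start and -0.42 from RB late to RC start.

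RNA polymerases I and III, which make rRNA and tRNA, followed with 11 of 29 genes lower (37.9%, against 8.51% of all tested genes, median -0.65). The 3 largest falls were all of polymerase I subunits: RPA49 went from 52.7 and 51.2 to 13.9 and 13.7 FPKM (-1.84 ± 0.13), RPA135 fell by 1.73 and RPA34 fell by 1.66. Among tRNA synthetases and translation factors 10 of 47 were lower (21.3%, against 8.51% of all tested genes, median -0.75). YEF3, the fungal elongation factor 3, went from 704.1 and 645.8 to 140.4 and 136.8 FPKM (-2.27 ± 0.04), further than TIF4631 (-1.42 ± 0.05) and TIF11 (-1.31 ± 0.06), which act in initiation. No member of the 2 lists was higher.

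Biosynthesis of building blocks fell in part. Of 61 amino acid synthesis genes 18 were lower (29.5%, against 8.51% of all tested genes) and 2 higher (3.28%, against 9.00%), with a median of -0.69. LYS4, the homoaconitase gene of lysine synthesis, fell from 171.1 and 154.0 to 35.7 and 29.8 FPKM (-2.28 ± 0.08), and LYS12, the homo-isocitrate dehydrogenase gene, from 720.7 and 706.5 to 186.7 and 200.0 (-1.88 ± 0.05). The lysine genes did not all fall: LYS5, which activates the aminoadipate reductase, rose from 38.3 and 35.3 to 93.0 and 86.0 FPKM (1.26 ± 0.06). Purine synthesis and one-carbon genes were lower in 4 of 22 cases (18.2%, against 8.51% of all tested genes) and higher in none (median -0.36). The 3 largest falls were on the branch to GMP: GUA1, the GMP synthase gene, fell from 109.8 and 102.3 to 21.5 and 24.3 FPKM (-2.17 ± 0.05), IMD3 fell by 2.12 and IMD4 fell by 1.95. IMD3 and IMD4, both IMP dehydrogenase genes, are close copies and can share reads.

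In sulfur assimilation and methionine synthesis 4 of 28 genes were lower (14.3%, against 8.51% of all tested genes) and 2 higher (7.14%, near the 9.00% of all), with a median of -0.45. SAM1 and SAM2, the S-adenosylmethionine synthetase genes, are close copies. SAM1 went from 232.9 and 228.6 to 68.6 and 64.8 FPKM (-1.78 ± 0.07) and SAM2 from 1175 and 1043 to 391.1 and 408.6 (-1.47 ± 0.05). MET6, the methionine synthase gene, fell by 1.19. STR3, a cystathionine beta-lyase gene, and MMP1, an S-methylmethionine permease gene, rose by 1.01 ± 0.07 and 1.00 ± 0.10, at the edge of the 2-fold minimum: under a pseudocount of 5 or under either rescaling neither was called. The larger fall of this list came afterwards, with a median change of -1.75 from RB late to RC start.

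Among the transport and control genes of the largest falls, AGP1, an amino acid permease gene, went from 201.2 and 190.4 to 34.7 and 34.6 FPKM (-2.46 ± 0.07). CTP1, the mitochondrial citrate carrier gene, went from 140.4 and 122.4 to 29.2 and 26.7 (-2.19 ± 0.10). PFK27, which makes the activator of phosphofructokinase, had 18.4 and 27.8 FPKM at RB start and 5.03 and 2.19 at RB late (-2.43 ± 0.23) and had the widest SE of the 11 shown. LEU9 went from 35.1 and 33.0 to 5.02 and 6.42 (-2.39 ± 0.11) and UTR2, a cell wall transglycosidase gene, from 32.9 and 29.7 to 5.31 and 5.45 (-2.34 ± 0.10). Like the ribosomal genes, all 11 had their highest mean at OX mid.

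**Figure D4:**
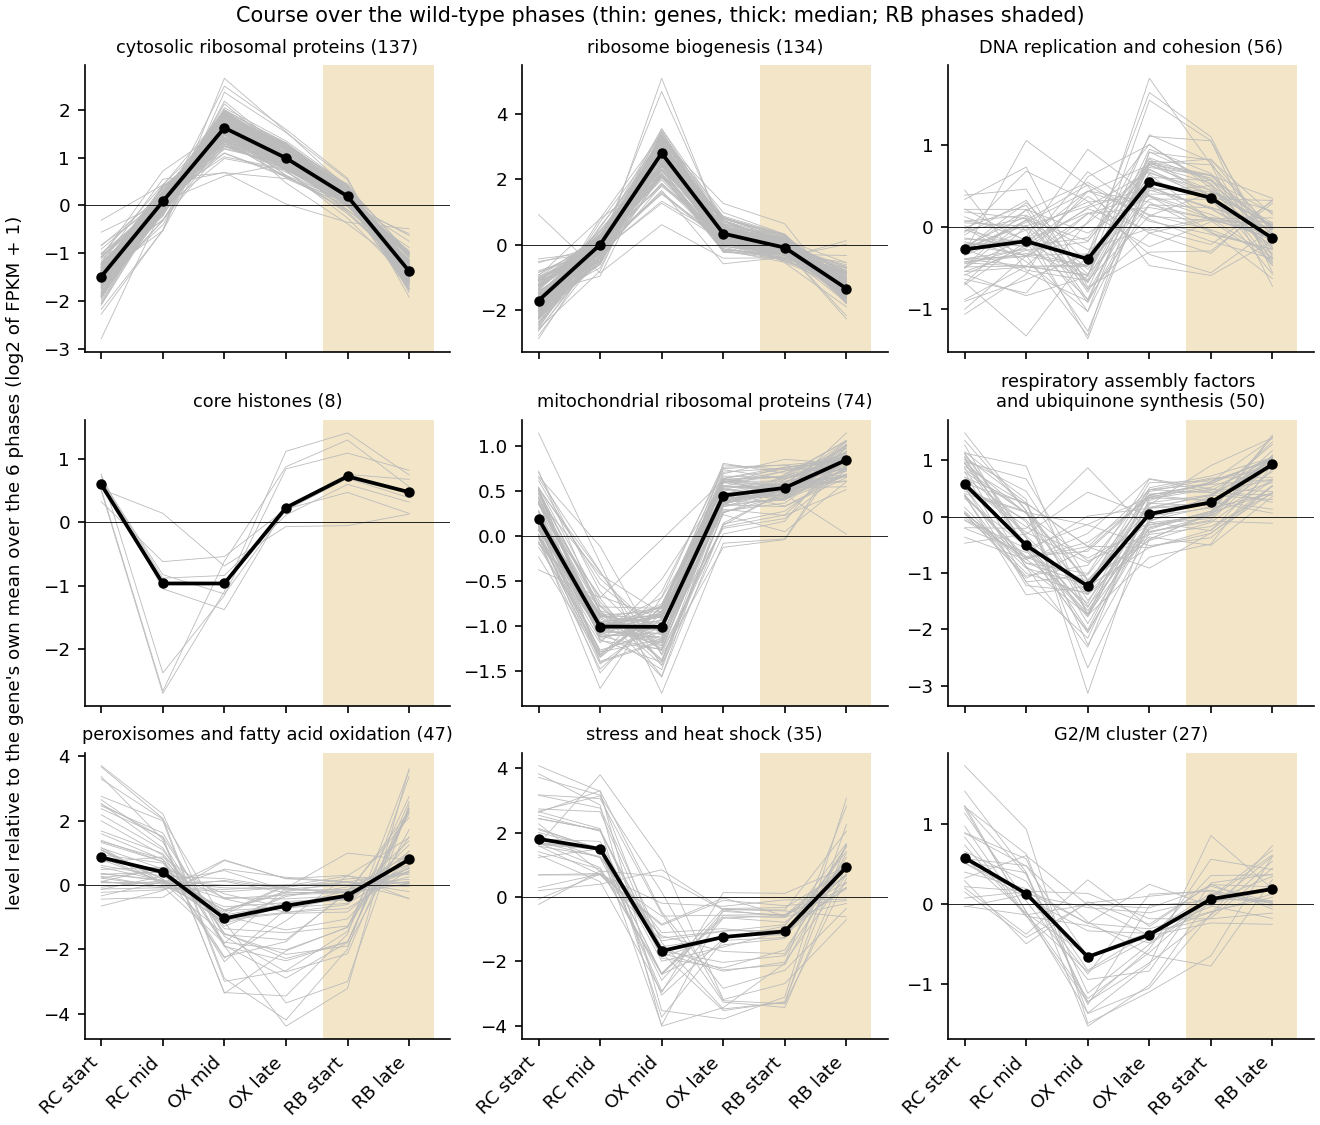
Course of 9 gene lists over the 6 wild-type phases, as log2 of FPKM + 1 relative to each gene's own mean over the phases (thin lines genes, thick line the median, RB phases shaded). Ribosomal lists come down from OX mid and DNA replication genes from OX late. Histone genes come down slightly from RB start to RB late, and their median level was 3289 FPKM at RC start, against 3318 at RB start. Mitochondrial ribosomal protein genes are highest at RB late, and peroxisomal and stress genes turn up within RB.

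Hexokinase genes were called in opposite directions. HXK1 and GLK1, the hexokinase and glucokinase genes known to be repressed by glucose, rose from 2426 and 2129 to 8034 and 7723 FPKM (1.79 ± 0.06) and from 392.0 and 329.0 to 1748 and 1680 (2.25 ± 0.06). HXK2, the hexokinase of fermenting cells, fell from 611.0 and 567.7 to 219.8 and 223.1 FPKM (-1.41 ± 0.04). The libraries of the phases did not overlap for any of the 3, which follows largely from their being called. Of the glyceraldehyde-3-phosphate dehydrogenase genes, TDH1 rose by 1.52 ± 0.03, while TDH2 and TDH3, chosen as its partners after their values were seen, had changes of -0.93 ± 0.04 and 0.58 ± 0.04, under the minimum. These 3 copies are similar enough to share reads. In the whole glycolysis and fermentation list 5 of 21 genes were higher (23.8%, against 9.00% of all tested genes) and 1 lower (4.76%, against 8.51%), with a median of -0.11.

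The isopropylmalate synthase genes of leucine synthesis were also called in opposite directions: LEU4, the main gene of the pair, rose from 541.1 and 477.8 to 1207 and 1192 FPKM (1.24 ± 0.05), and its paralogue LEU9 fell, as given above. Among genes for the use of proline, PUT4, the permease gene, rose from 60.6 and 50.9 to 414.0 and 411.0 FPKM (2.87 ± 0.07), and PUT1, the proline oxidase gene, fell from 356.3 and 318.9 to 93.1 and 92.3 (-1.85 ± 0.05). Beside the rise of CIT3, the citrate synthase genes CIT1 and CIT2 had changes of 0.42 ± 0.03 and -0.25 ± 0.03, and beside that of ACS1, ACS2 had one of -0.04 ± 0.05 (limma adjusted p = 0.522). CIT1, CIT2 and ACS2 were picked as partners after their values were seen, and none of the 3 reached 2-fold.

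Glucose transport and invertase genes were higher in 6 of 18 cases (33.3%, against 9.00% of all tested genes) and lower in none (median 0.67). The largest rises in the list were of the hexose transporter genes HXT10 (from 5.08 and 5.05 to 34.0 and 36.3 FPKM, 2.57 ± 0.11), HXT2 (2.43 ± 0.05) and HXT5 (2.19 ± 0.05). Genes under nitrogen catabolite repression, which serve poor nitrogen sources, were higher in 6 and lower in 2 of 31 cases (median 0.14). These were 19.4% and 6.45%, against 9.00% and 8.51% of all tested genes. CAR2, the ornithine transaminase gene of arginine breakdown, rose from 14.6 and 12.7 to 163.9 and 156.6 FPKM (3.46 ± 0.12), and GDH3, a glutamate dehydrogenase gene, by 2.22 ± 0.08.

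Few genes of the mitochondrial ribosome, translation and import lists were called. Of the 74 mitochondrial ribosomal protein genes 71 had a positive change and 67 had their highest mean at RB late, but 1 passed the 2-fold minimum, and the median change was 0.29. That gene was MRPS12, with 838.3 and 789.4 FPKM at RB start and 1732 and 1646 at RB late (1.05 ± 0.05), and it was highest at RC start. Most of the rise of this list from its low came before RB start: its median level was 96.6 FPKM at OX mid, 288.8 at OX late, 282.3 at RB start and 366.1 at RB late. No gene was called among 46 for mitochondrial translation and RNA (median 0.16) or among 50 for protein import and folding (0.19).

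Of 40 genes of the respiratory chain and ATP synthase 1 was higher and 1 lower (median 0.15). COX26, a small subunit of cytochrome c oxidase, rose from 876.0 and 895.7 to 2981 and 2893 FPKM (1.73 ± 0.04), and ATP20, which encodes subunit g of the ATP synthase, fell from 677.1 and 815.6 to 287.2 and 341.4 (-1.24 ± 0.16). Of 50 factors that assemble the chain and make ubiquinone 9 were higher (18.0%, against 9.00% of all tested genes) and none lower (median 0.62). COQ4, which organizes ubiquinone synthesis, rose from 58.7 and 58.9 to 166.1 and 151.2 FPKM (1.41 ± 0.09), COX23, needed for cytochrome oxidase, by 1.36 ± 0.09 and CBP4, needed for the bc1 complex, by 1.35 ± 0.10.

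In the TCA cycle 2 of 17 genes were higher (11.8%, near the 9.00% of all tested genes) and none lower (median 0.42). Both encode succinyl-CoA ligase: LSC1 went from 444.8 and 421.3 to 1366 and 1347 FPKM (1.65 ± 0.04) and LSC2 from 436.0 and 392.8 to 1522 and 1518 (1.87 ± 0.05). The subunit genes thus had near-equal levels in both phases. For IDH1 and IDH2, the subunits of isocitrate dehydrogenase, chosen after their values were seen, the changes were -0.46 ± 0.05 and -0.41 ± 0.05. Of 26 genes for iron-sulfur clusters and haem 1 was higher, the scaffold gene ISU1 (from 598.7 and 554.7 to 1677 and 1611 FPKM, 1.51 ± 0.06), and the median of the list was 0.09, or -0.03 under quantile normalization.

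Of 16 genes for G1 cyclins and Start 4 were lower (25.0%, against 8.51% of all tested genes) and none higher (median -0.41). Of 56 genes for DNA replication and cohesion 6 were lower (10.7%, near the share of all genes) and none higher (-0.45). CLN2, a G1 cyclin gene, had 55.7 and 49.9 FPKM at RB start and 16.5 and 17.0 at RB late (-1.60 ± 0.06), and PCL1, a cyclin of the Pho85 kinase, 193.7 and 182.3, then 65.3 and 69.4 (-1.47 ± 0.07). CLB6, an S-phase cyclin gene, was low throughout, with 4.25 and 7.37, then 0.905 and 1.22 FPKM (-1.69 ± 0.36), and was no longer called with a pseudocount of 5 (-0.82). RNR1, the large subunit of ribonucleotide reductase, went from 93.6 and 94.6 to 29.6 and 30.7 FPKM (-1.61 ± 0.06), POL30, the sliding clamp PCNA, from 181.9 and 181.3 to 66.6 and 61.3 (-1.49 ± 0.09), and MCD1, the cohesin subunit, from 56.6 and 58.5 to 19.1 and 21.0 (-1.48 ± 0.09). These 6 genes had their highest means at OX late, and their mean was lower at RB start than at OX late. None of the 17 genes of the pre-replication complex was called (median -0.33).

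Core histone genes, which package the DNA copied in S phase, stayed among the most abundant transcripts. No member of the 8 reached 2-fold, and the median change was -0.29, although 7 of the 8 had a limma adjusted p under 0.05. HTB2 had 2983 and 3067 FPKM at RB start and 1814 and 1820 at RB late (-0.74 ± 0.04), and HTA2, its neighbour in the genome, 2228 and 2412, then 1428 and 1503 (-0.66 ± 0.05). The other H2B and H2A genes had a change of -0.33 ± 0.03 (HTB1) and 0.18 ± 0.04 (HTA1), whose sign turned to -0.14 under quantile normalization. The H3 and H4 genes had -0.31 (HHF1), -0.27 (HHF2), -0.28 (HHT1) and -0.08 (HHT2, adjusted p = 0.115). Quantile normalization moved the median of the 8 to -0.80 and took HHF1 past the minimum, at -1.05, so the size of the histone change depends on the scaling. The copies within each histone type are similar in sequence and may share reads, which was not tested. At RC mid the means were 3349 FPKM for HTA1 and 133.4 for HTA2, and 1606 for HTB1 and 193.3 for HTB2. For HHF1 and HHF2 they were 1886 and 362.2, and for HHT1 and HHT2 1151 and 1015.

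Later cell cycle groups showed no common direction. Of 55 kinetochore and spindle genes 1 was higher and 1 lower (median -0.13): CTF19, a kinetochore gene, rose by 1.19 ± 0.10 and DUO1, of the Dam1 ring, fell by 1.08 (not called without RB start library B, -0.94). Of 27 genes of the G2/M cluster 2 were higher (7.41%, near the 9.00% of all tested genes) and none lower (median 0.08). These were HOF1, a cytokinesis gene (from 4.01 and 6.22 to 13.9 and 13.2 FPKM, 1.27 ± 0.13), and SPO12, a mitotic exit gene (1.09 ± 0.08). Neither call held throughout, since HOF1 had 0.88 with a pseudocount of 5 and SPO12 0.99 without RB start library B. Of this list, 20 of the 27 were highest at RC start. CLB2, the main mitotic cyclin gene, chosen after its values were seen, had 21.1 and 23.4, then 19.5 and 21.0 FPKM (-0.13 ± 0.13). In the M/G1 list 2 of 22 were higher and 2 lower (median -0.32). Both shares, 9.09%, were near those of all tested genes (9.00% and 8.51%). HO, the mating-type endonuclease gene, which is expressed in late G1, fell from 33.0 and 31.6 to 5.76 and 7.11 FPKM (-2.17 ± 0.11) and DSE1, a daughter cell gene, fell by 1.16. RME1, a repressor of meiosis, and PIR1, a cell wall gene, rose by 1.13 and 1.05, but were not called under quantile normalization (0.84 and 0.89).

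Sterol and fatty acid synthesis genes were lower in 5 (15.6%, against 8.51% of all tested genes) and higher in 2 (6.25%, against 9.00%) of 32 cases (median -0.17). ERG3, the sterol C-5 desaturase gene, fell from 704.7 and 683.3 to 162.8 and 171.9 FPKM (-2.05 ± 0.04), whereas ERG6, the sterol methyltransferase gene of the same pathway, rose from 487.0 and 468.8 to 1213 and 1233 (1.35 ± 0.04). Of the fatty acid elongases, ELO3 fell by 1.94 and ELO2 fell by 1.40, and the sterol regulator gene ECM22 rose by 1.01 ± 0.09, at the edge of the minimum (0.86 with a pseudocount of 5). Of 18 inositol and phospholipid genes EPT1, the ethanolamine phosphotransferase gene, was the member called, with a fall of 1.11.

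The cell wall list had 3 of 33 members higher (9.09%, near the 9.00% of all tested genes) and 7 lower (21.2%, against 8.51%). Its median was -0.00. CWP1 (from 19.9 and 14.5 to 115.5 and 115.2 FPKM, 2.69 ± 0.21), SED1 (from 1552 and 1519 to 7711 and 8244, 2.38 ± 0.06) and PIR3 (1.52 ± 0.09), which encode structural wall proteins, rose. FKS1, the glucan synthase gene (from 108.6 and 116.9 to 23.9 and 27.7 FPKM, -2.09 ± 0.07), SCW10 (-1.25 ± 0.06) and UTR2 fell. Of 21 iron uptake genes 3 were higher (14.3%) and 2 lower (9.52%), not far from the 9.00% and 8.51% of all tested genes (median 0.10). HMX1, the haem oxygenase gene, rose from 60.4 and 53.3 to 295.9 and 277.7 FPKM (2.32 ± 0.06), and the wall mannoprotein genes FIT3 and FIT2 by 1.89 and 1.72. ARN1, a siderophore transporter gene, fell by 1.19, and FET3, the ferroxidase of high-affinity uptake, fell by 1.06 (not called without RB late library B, -0.96).

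Other lists had at most 1 member called. In the phosphate response this was PHM6 (-1.75 ± 0.29; 1 of 16), in a-type mating STE2, the alpha-factor receptor gene (from 368.6 and 406.3 to 171.2 and 184.8 FPKM, -1.12 ± 0.07; 1 of 15), and in meiosis and sporulation DMC1, the meiotic recombinase gene (1.11 ± 0.12, or 0.90 and not called with a pseudocount of 5; 1 of 28). None of the 34 proteasome genes was called (median 0.13, or -0.10 under quantile normalization), and 32 of them were highest at RC start. None of the 15 genes of the INO80 complex was called either, with a median of 0.06, or -0.10 under quantile normalization, and a range from -0.37 to 0.54.

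Over the 6 phases, 361 of the 586 rising genes had their highest mean at RC start, 85 at RC mid and 131 at RB late itself, and none at OX late. Of the 554 falling genes 474 had their highest mean at OX mid, 46 at OX late and 29 at RB start, and 413 had their lowest at RC start. Among all 6510 tested genes 1530 were highest at RC start, 2418 at OX mid and 848 at RB late. A gene that rose between these phases cannot have its highest mean at RB start, so part of this order follows from the call. ADY2, CIT3, GPH1, CAR2 and GDH3 were among the named genes that were highest at RB late. ADY2 had 4.84 FPKM at OX late, 12.7 at RB start, 4017 at RB late and 3558 at RC start, whereas CTT1 went on from RB late to 607.9 FPKM at RC start.

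The change was compared between the genotypes by a test of its difference under the same phase labels. In arp5∆ as labelled, 98 genes were higher (1.51%) and 55 lower (0.845%) in the libraries labelled RB late than in those labelled RB start, 153 in all (2.35%). The limma interaction called 1821 genes (28.0%), 929 with the more positive change in wild type (14.3%) and 892 with the more negative one (13.7%). Of the genes called in each strain, 124 were called in both, all with opposite signs: they were 10.9% of the 1140 of the wild type and 81.0% of the 153 of arp5∆. The wild-type change itself is part of this difference, so its largest values fall largely on the same genes.

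ADY2 had 2520 and 2523 FPKM in the arp5∆ libraries labelled RB start and 1190 and 1191 in those labelled RB late. The arp5∆ libraries were thus high where the wild type was low, and the difference between the changes was 9.28 ± 0.12 (SE, limma adjusted p = 1.62e-19). ADH2 had 12674 and 11950 FPKM in the arp5∆ libraries labelled RB start and 6997 and 7194 in those labelled RB late, a difference of 8.05 ± 0.06. YEF3 had 333.6 and 306.6, then 797.4 and 783.2 FPKM, a difference of -3.58 ± 0.06. In each of these 3 genes the arp5∆ change had the opposite sign to that of the wild type.

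By list, cytosolic ribosomal protein genes had a median change of 0.80 in arp5∆ against -1.55 in wild type, with a more negative wild-type change called in 134 of 137. Ribosome biogenesis genes had 0.75 against -1.27 (called in 120 of 134), stress genes -0.94 against 1.93 (31 of 35), and trehalose and glycogen genes -0.78 against 1.89 (17 of 19). Core histone genes had medians of -0.83 in arp5∆ and -0.29 in wild type, and the difference was called for 1 of the 8. Mitochondrial ribosomal protein genes had -0.28 against 0.29, and 5 of 74 differences were called. Over all tested genes the difference was called in 28.0%, with the more positive change in wild type in 14.3% and the more negative one in 13.7%. The counts of the histone and mitochondrial ribosomal protein lists were not above these shares.

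These differences hold for the libraries as labelled, since the course of the lists did not line up between the cultures. Ribosome biogenesis genes had their highest median level in the arp5∆ libraries labelled RC start (95.5 FPKM, against 9.43 in wild type) and not in those labelled OX mid (24.5 against 228.6). Peroxisomal and fatty acid oxidation genes were highest in the arp5∆ libraries labelled OX late (116.5 FPKM, against 28.4 in wild type). A change of timing and a change of regulation cannot be told apart with 1 culture per genotype.

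**Figure D5:**
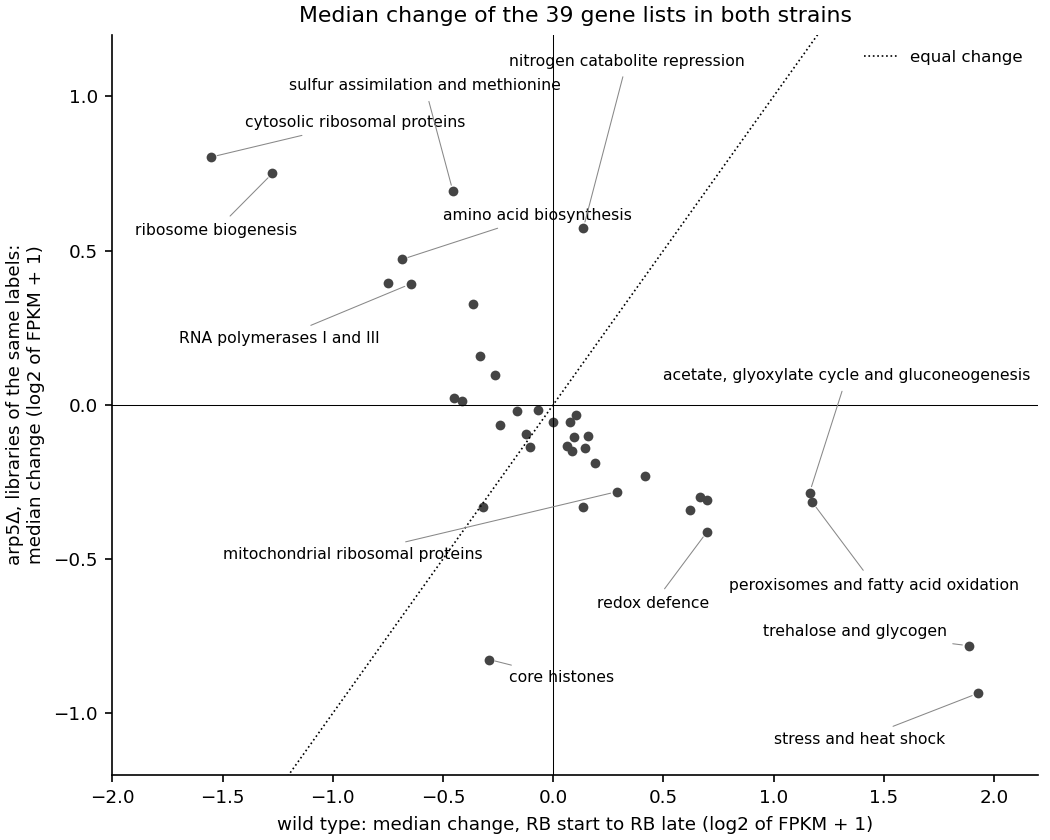
Median log2 change of each of the 39 gene lists from RB start to RB late in wild type (horizontal) and between the arp5∆ libraries of the same labels (vertical), with a dotted line for equal change. Ribosomal lists lie at upper left (-1.55 and 0.80 for cytosolic ribosomal proteins), stress and storage lists at lower right (1.93 and -0.94 for stress and heat shock), and core histones are negative in both.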

How the data were processed

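Samples were grouped by the genotype and growth phase in the labels. The RNA, taken with a MasterPure kit and turned into libraries with a TruSeq mRNA kit per the labels, was deposited by the authors as FPKM values for 6840 genes. Bowtie2, DESeq2, Picard and the build sacCer3 are listed in the submitters' processing notes, with no versions. Neither the way reads were counted per gene nor the strand is stated in those sources, so antisense or overlapping genes may share reads. In the 4 libraries compared, 96.6% to 98.1% of low values were whole multiples of what 1 read is worth (tolerance 0.1 of a read), which gave the depths. These multiples were not used for a count test.

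The tests used limma 3.58.1 (R 4.3.3) on log2(FPKM + 1), with an intensity trend, over 12 groups and 24 libraries. A mean under 1 FPKM left a gene out. On this scale the fold change of a low gene is understated. A call required a Benjamini-Hochberg adjusted p under 0.05 over the 6510 genes and an absolute log2 change of at least 1. The method was tested on simulated data. RefSeq (assembly R64) matched 5900 genes by locus tag and gave 5238 standard names. Lists are described by counts and medians, with no set test. HXT16 and ARN2 were not analysed here.

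The comparison and the 39 lists were chosen with earlier results of these data known. The named genes are the 12 with the greatest rise and the 12 with the greatest fall among those called that are protein-coding, have a standard name, reach 10 FPKM in the higher phase and do not overlap between phases, up to 3 called members per list and direction, ARP5, all members of lists of at most 10 genes, and the 6 highest and 6 lowest differences between genotypes. Of these, 1 gene is not reported here. Alternatives changed the pseudocount (0.1 or 5), the filter, the scaling, the trend, the genes and the libraries. Promoter sequences, ATAC and rapamycin libraries were not used here.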

Additional observations from a re-analysis of the deposited data

Results flagged for a closer look

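These results stand out because the change from RB start to RB late differed between wild type and arp5∆ by a test of the difference itself (limma interaction, Benjamini-Hochberg adjusted). All are for libraries as labelled, with the wild-type change minus the arp5∆ change on the log2 scale. The difference was called for 1821 of 6510 genes. The 6 largest positive differences among named genes were 9.28 for ADY2, 8.05 for ADH2, 7.84 for FOX2, 7.54 for SPG1, 7.40 for FDH1 and 6.90 for CTA1. In each the wild type rose, and the arp5∆ change was negative, from -0.61 (FDH1) to -1.35 (SPG1). Of the 6 largest negative differences, 5 are given here: -3.67 for LEU9, -3.60 for AGP1, -3.60 for NOP56, -3.58 for LYS4 and -3.58 for YEF3. In each the wild type fell, and the arp5∆ change was positive, from 1.13 (AGP1) to 1.30 (LYS4). Libraries A and B of both phases lay apart in wild type for all 11, which was a condition of their place among the largest rises and falls. With 2 libraries per group, no group was large enough to look for single samples far from the others.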

How the results depend on the processing

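Across the alternatives the wild-type comparison called between 920 genes (pseudocount 5) and 1219 genes, against 1140. Leaving out 1 library at a time gave 1102 to 1219, of which at least 1040 were among the 1140. The genotype difference called 1571 (pseudocount 5) to 1898, against 1821, and 1751 to 1898 with 1 library left out. Where 1 library is left, it is assumed to vary like the other groups. Quantile normalization called 522 genes higher and 578 lower, against 586 and 554. Every gene named by the stated rule kept its direction except HTA1 (-0.14 under quantile normalization). For genes picked after their values were seen the alternatives were not examined. At pseudocount 5 the genes CLB6 (-0.82), HOF1 (0.88), DMC1 (0.90), DUO1, PIR1, STR3, MMP1, ECM22 and FET3 lost their call. Under quantile normalization SPO12 (0.92), RME1 (0.84), PIR1, STR3 and MMP1 lost it, and HHF1 gained one. With equal medians STR3, MMP1 and ECM22 lost it. Without RB start library A this held for STR3, ECM22 and FET3, without RB start library B for DUO1, SPO12, PIR1 and MMP1, without RB late library A for MMP1 and ECM22, and without RB late library B for STR3 and FET3. Quantile normalization moved 27 of the 39 list medians by more than the spread between library pairings and turned the sign of 4 more, with shifts from -0.51 (core histones) to 0.10 and a median shift of -0.11. Medians that turned sign lay near 0: under quantile normalization iron-sulfur and haem genes (-0.032), proteasome (-0.10), phosphate response (0.014) and INO80 complex (-0.10). With 1 library left out the median of the cell wall list ran from -0.013 to 0.077 (positive without RB start library A or RB late library A) and that of the INO80 complex from -0.022 (without RB start library B) to 0.15. The cause was not tested. The A minus B deviations of RB start and RB late correlated with r = 0.12 across genes, within the -0.12 to 0.19 of all 66 pairs of groups. That range includes this pair, so it cannot settle whether the letters A and B pair the samples. With the letter as a replicate block the counts were 1143 and 1824. Depth limits genes under about 10 FPKM, such as CLB6, and p-values cover technical spread.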
